A study of Mus musculus with 264 samples.

Results

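The comparison of 100 with 70 mM ethanol in culture Set-A covered 66 single neurospheres, 33 at each dose, of 264 in the whole series. They were selected by culture set and ethanol label. Each dose had 11 neurospheres in run 1 and 22 in run 2, where a run is 1 series of microfluidic PCR arrays. The runs held different neurospheres of the same culture set, so each run was compared on its own and the runs were then combined.

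Neurospheres are free-floating balls of neural stem and progenitor cells that grow in medium with the mitogens bFGF and EGF. The dorsal telencephalon is the part of the embryonic forebrain that gives rise to the cerebral cortex, and its ventricular neuroepithelium holds the progenitors of cortical projection neurons. Ethanol is a teratogen, and prenatal exposure is known to disturb the growth and maturation of these progenitors.

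The neuroepithelium came from C57/Bl6 fetuses at gestational day 12.5, pooled from whole litters, and no genotype other than the strain is given. All groups grew in the same medium with bFGF, EGF and LIF, and cultures were assigned at random to 0, 25, 70 or 100 mM ethanol, kept until collection at day 5. The 0 mM neurospheres of Set-A (34, with 11 in run 1 and 23 in run 2) and the 25 mM neurospheres (32, with 11 and 21) served as reference points. The sample labels were followed for the doses, although the series design names the middle dose slightly differently and the treatment protocol does so for the lowest dose.

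Set-A is 1 culture set. The p-values below therefore measure the spread between neurospheres grown together, and they are too small to be read as statements about independent cultures.

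Messenger RNA was read by quantitative PCR as cycle numbers (Ct) for 75 assays. A cycle number falls by 1 for each doubling of template, if primers double their product in every cycle. In the 66 neurospheres the cycle numbers ran from 2.96 to 26.8, and 433 of 4950 entries (8.75%) were empty and taken as not detected. A total of 37 assays were detected in all 66. The assays carry codes in place of gene names, and 0 of 75 codes matched the mouse gene table, so neither the telencephalic identity nor any pathway could be checked, and no sequences could be shown.

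A relative level below means the cycle number centred on the neurosphere's own mean over 52 widely detected assays (those found in at least 95% of Set-A neurospheres), with its sign turned, in log2 units. It describes how the measured transcripts are shared out within a neurosphere, and the total is described first.

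At 100 mM the transcripts appeared earlier than at 70 mM over both runs together, a difference that passed its test in run 2 and not in run 1. In run 1 the mean cycle number per neurosphere ran from 7.72 through a median of 13.3 to 16.4 at 70 mM, and from 8.90 through 12.6 to 15.8 at 100 mM. In run 2 it ran from 8.32 through 16.0 to 19.9 at 70 mM, and from 7.83 through 13.2 to 14.4 at 100 mM. In run 1 every neurosphere at 100 mM lay within the 70 mM range, with 1 at 70 mM later and 2 earlier than all those at 100 mM. In run 2, 15 of 22 neurospheres at 70 mM amplified later than the latest one at 100 mM.

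The difference between 100 and 70 mM was -0.04 cycles in run 1 (SE 1.02, adjusted p = 0.967) and -3.17 in run 2 (SE 0.76, adjusted p = 0.00064). Combined it was -2.13 (SE 0.61, adjusted p = 0.0028; permutation test, two-sided, adjusted over 4 whole-neurosphere measures). This 100 minus 70 mM difference did not differ between the runs past the adjusted threshold (run 2 minus run 1, -3.13 cycles, adjusted p = 0.0676). At 0 mM the mean cycle number was 12.8 ± 1.45 in run 1 (SD, n = 11) and 14.4 ± 2.41 in run 2 (n = 23), so by their means, without a test, the 70 mM neurospheres of run 2 lay later than the untreated ones and those at 100 mM earlier. Less material in a neurosphere and less RNA per cell cannot be told apart in these values.

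**Figure D1:**
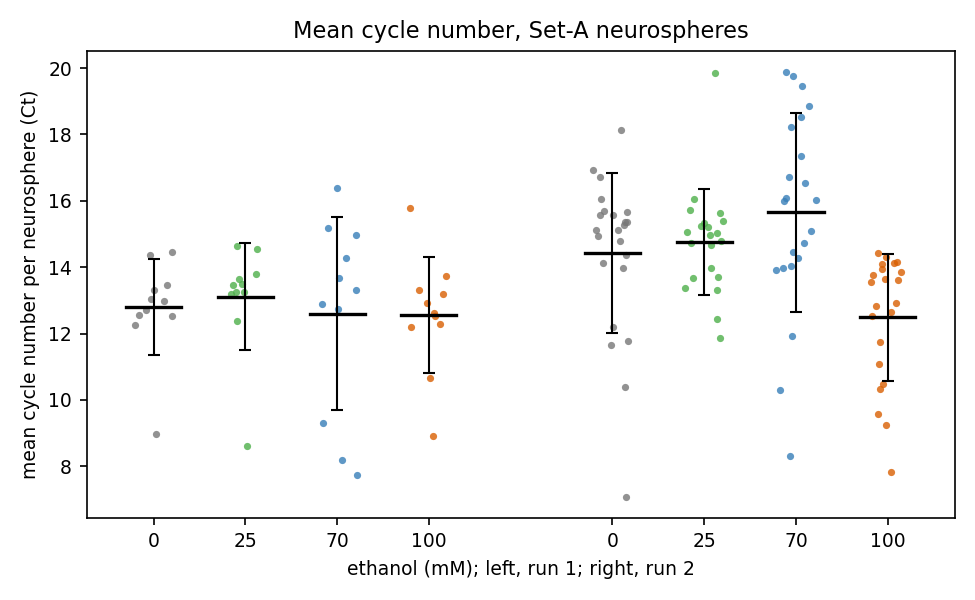
Mean cycle number per neurosphere (Ct, vertical axis) against ethanol dose (mM, horizontal axis) for Set-A, with run 1 on the left and run 2 on the right; points are neurospheres, thick bars group means and whiskers 1 SD. In run 1 the 70 and 100 mM means are both 12.6, while in run 2 they are 15.7 and 12.5.

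More assays were detected at 100 mM. The number of detected assays had a median of 71 at both doses in run 1, and of 68 at 70 mM against 69.5 at 100 mM in run 2. In run 2 the range was 54 to 73 at 70 mM and 64 to 74 at 100 mM, so the neurospheres with the fewest detected assays were at 70 mM. The combined difference was 3.24 assays (SE 1.10, adjusted p = 0.00617), with 1.45 in run 1 (adjusted p = 0.714) and 4.14 in run 2 (adjusted p = 0.0133; permutation tests). The test of whether this 100 minus 70 mM difference differed between the runs did not pass (2.68 assays, adjusted p = 0.249).

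Diameter did not pass the test. Its mean was 43.7 ± 19.4 micrometres at 70 mM and 40.5 ± 15.2 at 100 mM in run 1 (SD, n = 11 each), and 39.6 ± 11.5 and 45.8 ± 15.3 in run 2 (n = 22 each). On the log2 scale the combined difference was 0.10 (SE 0.12, adjusted p = 0.405, permutation test), with -0.10 in run 1 and 0.20 in run 2. Both doses lay below the 0 mM mean of 86.2 ± 33.8 micrometres in run 1, and in run 2 the 0 mM mean was 60.3 ± 41.5.

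Neurospheres at 100 mM were more alike than those at 70 mM. The spread of a neurosphere is here its root mean square deviation, over assays, from the mean relative level of its own run and dose. Its mean was 1.36 at 70 mM and 1.16 at 100 mM in run 1, and 1.48 and 1.02 in run 2. The combined difference was -0.37 log2 units (SE 0.10, adjusted p = 0.0028), with -0.19 in run 1 (adjusted p = 0.714) and -0.46 in run 2 (adjusted p = 0.00104; permutation tests). The 25 mM neurospheres had the smallest mean spread of the 4 doses in each run, 1.01 and 0.91. Mean cycle number differed between the doses in run 2 as well, and its part in the spread was not tested. Between the runs the 100 minus 70 mM difference in spread did not differ past the threshold (-0.27, adjusted p = 0.249).

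Relative levels differed between 100 and 70 mM for 35 of 72 tested assays (48.6%), of which 14 were higher at 100 mM (19.4%) and 21 lower (29.2%). The test was limma with the 8 combinations of run and dose as means and Benjamini-Hochberg adjustment at 0.05. The median size among the 35 was 2.49-fold. The largest rise was 2.96 on the log2 scale and the largest fall -2.99. The median difference over all 72 was -0.11.

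The division into higher and lower moved with the processing. Without it 42 assays were higher and 0 lower, with a median difference of 1.92 over all 72, and centring on the median in place of the mean gave 11 higher and 25 lower. Centring on the 5 steadiest assays gave 11 higher and 9 lower, and setting missing values to 30 cycles gave 16 higher and 15 lower, with 19 and 25 of the 35 among them in the same direction. With a covariate for the neurosphere's mean cycle number, 44 passed, 20 higher and 24 lower, and 32 of the 35 were among them with the same sign.

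The higher and lower assays overlapped in how early they amplified, but the earliest assays were not among the higher ones. The assays that were higher at 100 mM had a median mean cycle number of 14.3 (range 12.4 to 18.5), those that were lower 14.5 (9.39 to 19.4), and those that did not pass 15.0 (7.01 to 20.2). Cycle numbers of different assays do not rank their transcripts by abundance, because primer efficiency and amplicon length are unknown.

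Run 1 called 24 of 72 assays (33.3%), 16 higher and 8 lower, with a median size of 4.56-fold among them. Run 2 called 35 (48.6%), 13 higher and 22 lower, with a median of 2.93-fold. Of the 35 combined calls 34 had the same sign in both runs, against 49 of all 72 tested, but the combined test itself favours such assays. Across the 72 assays the differences in the 2 runs had a Pearson r of 0.26 and a Spearman rho of 0.35, and Pearson's r was 0.47 over the 52 widely detected assays. Assays are not independent replicates, so no p is given.

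The runs also disagreed on particular assays. A total of 13 passed in each run on its own. Of these, 8 had the same direction in both, 4 higher and 4 lower, and 5 had opposite directions. The difference between 100 and 70 mM depended on run for 15 of 72 assays (20.8%; limma test of run 2 minus run 1). It was opposite in sign for 11 of the 15 and larger in run 1 for 13. Only 4 of the 15 were also among the 35 combined calls. The runs differed before any ethanol as well: at 0 mM the median absolute difference in relative level between run 1 and run 2 was 1.17, and it was above 2 for 16 assays, of which 6 were among the 15. The 0 mM means in runs 1 and 2 were 7.73 and -3.67 for A052, and 6.45 and -2.04 for A072, which is among the 35. For A048 they were -7.32 and -3.83. At 70 and 100 mM, A062 was detected in run 1 only and A036 in run 2 only. Whether each code read the same transcript in both runs was not tested.

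**Figure D2:**
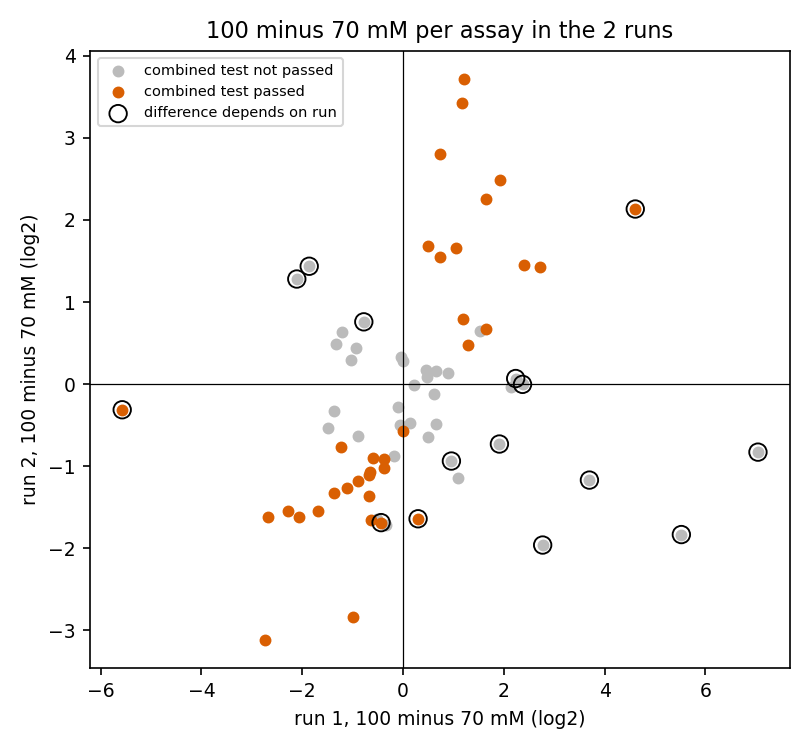
Difference in relative level between 100 and 70 mM (log2) for each of 72 assays, in run 1 (horizontal axis) and run 2 (vertical axis); orange points passed the combined test and circles mark assays whose difference depended on run. Of the 35 orange points 34 lie in the lower left or upper right quadrant, and 11 of the 15 circled points lie in the other quadrants.

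The 4 assays described singly are those with the largest rises and falls among the combined calls that had the same direction in both runs and were detected in at least 90% of neurospheres of each run and dose. The conditions left 9 assays that rose and 15 that fell.

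A016 was higher at 100 mM in both runs. In run 1 its relative level ran from -2.77 through a median of 0.18 to 1.87 at 70 mM, and from 1.29 through 3.98 to 6.78 at 100 mM. In run 2 it ran from -3.78 through 0.11 to 2.36 at 70 mM, where 21 of 22 neurospheres detected it, and from -1.62 through 2.14 to 3.63 at 100 mM. In run 1 all 11 neurospheres at 100 mM lay above the 70 mM median and 9 above the highest at 70 mM. In run 2 these counts were 19 and 10 of 22, so the doses overlapped more there.

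The combined difference of A016 was 2.96 on the log2 scale (SE 0.43, 7.77-fold, limma adjusted p = 8.63e-09). It was 4.61 in run 1 (SE 0.74, adjusted p = 1.34e-07) and 2.13 in run 2 (SE 0.53, adjusted p = 0.000404), a difference between runs of -2.48 that passed its test (SE 0.91, adjusted p = 0.0389). A016 was -0.66 at 70 against 0 mM (adjusted p = 0.238) and 2.29 at 100 against 0 mM (SE 0.42, adjusted p = 1.03e-05). Its mean at 0, 25, 70 and 100 mM was -0.60, 0.51, -0.47 and 4.14 in run 1 and 0.62, 1.46, -0.42 and 1.71 in run 2, so the 100 mM mean was the highest of the 4 doses in both runs, with 25 mM near it in run 2.

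A017 was higher at 100 mM over both runs together, and on its own in run 2. In run 1 it ran from -3.71 through a median of 1.45 to 2.51 at 70 mM, and from -6.03 through 2.40 to 3.41 at 100 mM. In run 2 it ran from -6.41 through -2.17 to 3.20 at 70 mM, and from -1.32 through 2.42 to 4.26 at 100 mM. In run 1 the doses overlapped, with 5 of 11 neurospheres at 100 mM above the highest at 70 mM and 1 below the lowest, whereas in run 2 14 of 22 neurospheres at 70 mM lay below the lowest at 100 mM.

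For A017 the combined difference was 2.88 (SE 0.53, 7.39-fold, limma adjusted p = 2.63e-06), with 1.21 in run 1 (SE 0.92, adjusted p = 0.288) and 3.72 in run 2 (SE 0.65, adjusted p = 1.22e-06). These 2 differences did not differ from each other past the threshold (2.51, SE 1.12, adjusted p = 0.105). Over both runs A017 fell by 1.95 at 70 against 0 mM (SE 0.53, adjusted p = 0.00248). At 100 against 0 mM it was 0.95 (adjusted p = 0.214). The fall at 70 mM was seen in run 2 (-3.13, limma adjusted p = 5.68e-05) and not in run 1 (0.46, adjusted p = 0.855). The means of A017 at 0, 25, 70 and 100 mM were -0.04, 2.01, 0.41 and 1.63 in run 1. In run 2 they were 1.54, 2.66, -1.59 and 2.13, so the 70 mM group was the low one in run 2 alone.

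A001 was lower at 100 mM in run 1 alone, in the levels centred on the mean. Its median cycle number before centring moved the same way in run 1. In run 1 it ran from 1.34 through a median of 2.73 to 9.03 at 70 mM, and from -4.47 through -1.71 to 3.36 at 100 mM, where 10 of 11 neurospheres detected it. In run 2 it ran from -6.86 through -2.68 to 2.37 at 70 mM, and from -4.68 through -2.56 to -0.63 at 100 mM. Of the 10 neurospheres at 100 mM in run 1 that detected it, 8 lay below the lowest at 70 mM. In run 2 all 22 at 100 mM lay within the 70 mM range, with 3 at 70 mM above the highest and 2 below the lowest at 100 mM.

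The combined difference of A001 was -2.06 (SE 0.48, limma adjusted p = 0.000141), with -5.57 in run 1 (SE 0.84, adjusted p = 3.8e-08) and -0.31 in run 2 (SE 0.58, adjusted p = 0.667). The run 2 minus run 1 difference was 5.26 (SE 1.03, adjusted p = 2.62e-05). The assay already stood apart between runs at 0 mM, with a mean of 4.11 in run 1 and -1.96 in run 2. A001 was -0.33 at 70 against 0 mM (adjusted p = 0.617) and -2.37 at 100 against 0 mM (adjusted p = 4.81e-05). Without centring the difference between 100 and 70 mM was 0.05 over both runs together (limma adjusted p = 0.934). Before centring the median cycle number of A001 rose from 7.23 at 70 mM to 15.3 at 100 mM in run 1. In run 2 it fell from 18.6 to 15.6, so the runs moved in opposite directions.

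A025 was lower at 100 mM in both runs, in the levels centred on the mean. In run 1 it ran from -2.08 through a median of -0.12 to 2.92 at 70 mM, and from -4.11 through -2.86 to 0.36 at 100 mM. In run 2 it ran from -0.56 through 1.19 to 4.02 at 70 mM, and from -4.05 through -0.19 to 2.68 at 100 mM. Of the neurospheres at 100 mM, 10 of 11 in run 1 and 18 of 22 in run 2 lay below the 70 mM median of their run, and 7 and 10 lay below the lowest at 70 mM.

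For A025 the combined difference was -1.97 (SE 0.32, limma adjusted p = 1.65e-07), with -2.67 in run 1 (SE 0.56, adjusted p = 6.04e-05) and -1.62 in run 2 (SE 0.39, adjusted p = 0.000311). The run difference was 1.05 (adjusted p = 0.292). Among the 4 assays it alone was above 0 mM at 70 mM past the threshold: it was 2.17 at 70 against 0 mM (SE 0.32, adjusted p = 1.17e-08) and 0.20 at 100 against 0 mM (adjusted p = 0.731). At 25 mM it was already 1.72 above 0 mM (adjusted p = 8.85e-06). Without centring the difference between 100 and 70 mM was 0.16 over both runs together (limma adjusted p = 0.884). Before centring the median cycle number of A025 rose from 13.6 at 70 mM to 15.7 at 100 mM in run 1. In run 2 it fell from 15.1 to 13.6.

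**Figure D3:**
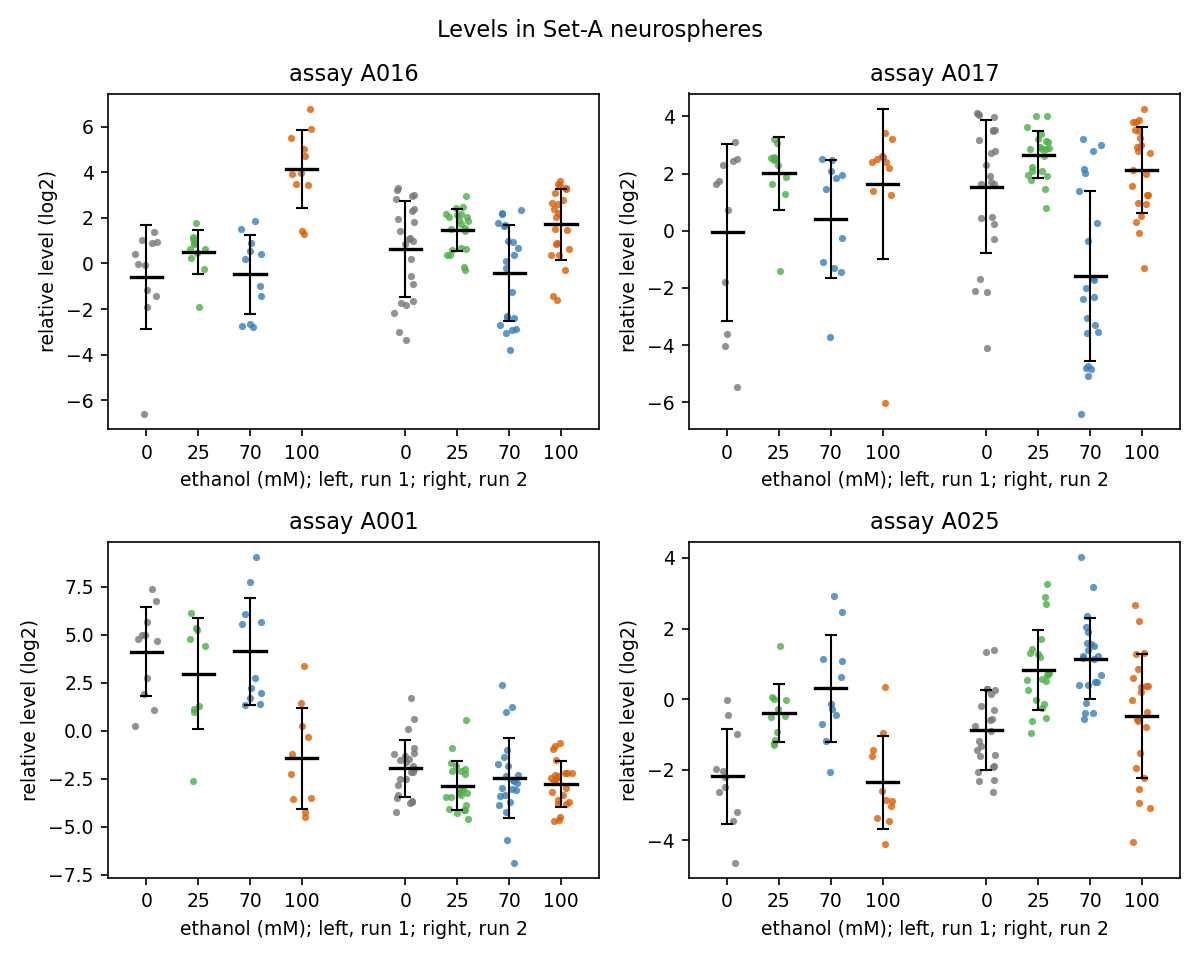
Relative levels (log2, vertical axis) of A016, A017, A001 and A025 in single Set-A neurospheres against ethanol dose (mM, horizontal axis), run 1 on the left and run 2 on the right of each panel; thick bars are means and whiskers 1 SD. At 100 mM A016 reaches a mean of 4.14 in run 1 and 1.71 in run 2. A001 is low at 100 mM in run 1 alone (-1.44 against 4.13 at 70 mM). Over both runs together the differences of A001 and A025 lose their sign without centring (0.05 and 0.16). In run 1 their median cycle numbers before centring are later at 100 mM, which is a lower level.

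Mean cycle number was also correlated with these levels among neurospheres treated alike. Part of this correlation is built in, because each relative level is centred on the neurosphere's mean cycle number. The values below are pooled over the runs and doses, so they do not show the relation inside each run and dose. The correlation of relative level with mean cycle number among neurospheres of the same run and dose was 0.42 for A016, 0.47 for A017, 0.32 for A001 and -0.53 for A025. Over the 72 assays its median size was 0.40 and its range -0.70 to 0.92. Of the 35 assays that differed, 10 had a correlation beyond 0.5 in size, and 8 of these 10 were lower at 100 mM with a negative correlation. With mean cycle number as a covariate the differences were 3.48 for A016, 3.56 for A017, -1.63 for A001 and -2.59 for A025, and all 4 passed.

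The assays that differed also varied together among neurospheres treated alike. Within run and dose, pairs of the 14 higher assays had a median correlation of 0.28 (91 pairs), pairs of the 21 lower assays 0.47 (210 pairs), and pairs of 1 higher and 1 lower assay -0.38 (294 pairs). The median over all 2556 pairs was -0.001. A016 and A017 had a correlation of 0.73, and A025 had -0.58 with A016 and -0.53 with A017, while A001 lay between -0.17 and -0.004 with the other 3. All these values share the neurosphere's centring, and they are given as a description.

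Detection shares did not pass the test. Of 28 assays detected in 5% to 95% of the 66 neurospheres, the exact conditional Mantel-Haenszel test with run as stratum called 0 (0%), and 8 had an unadjusted p under 0.05. The share was higher at 100 mM for 23 of the 28 and lower for 3, and the smallest adjusted p was 0.125. At the same unadjusted threshold run 2 alone gave 8 of 28 tested and run 1 alone 0 of 11. Run 2 was also where mean cycle number fell at 100 mM, and its part in the detection shares was not tested.

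Whether 100 mM turned back or went further than 70 mM was then described from the 70 against 0 mM comparison, which called 23 of 72 assays (31.9%; limma), 10 higher and 13 lower. On its own, run 1 called 11 of 72 at 70 against 0 mM and run 2 called 18. Only 3 assays passed in both runs. The 100 against 0 mM comparison called 9 (12.5%), 2 higher and 7 lower. Of the 23, 19 also differed between 100 and 70 mM, each in the opposite direction: 9 had risen at 70 mM and were lower at 100 mM, and 10 had fallen at 70 mM and were higher at 100 mM. At 100 mM, 14 of these 19 lay past the 0 mM level on the other side, and 0 of the 19 passed at 100 against 0 mM. No assay went further in its 70 mM direction, with 0 in limma and 0 at an unadjusted p under 0.05 in both comparisons, against 25 in the turning direction at that threshold. Without normalization 8 assays turned in this way, and with a covariate for mean cycle number 31 did. Another 16 assays differed between 100 and 70 mM without having passed at 70 against 0 mM, 4 higher and 12 lower, and 9 of these 16 passed at 100 against 0 mM. The comparisons share the 70 mM neurospheres, so that a chance deviation of those neurospheres enters both with opposite sign.

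The same question was therefore put with 70 against 0 mM from 1 run and 100 against 70 mM from the other, which have no neurosphere in common. Run 1 called 11 assays at 70 against 0 mM (15.3%). In run 2, 7 of these 11 had the opposite sign at 100 against 70 mM, 4 of them past the limma threshold, and 0 passed with the same sign. Run 2 called 18 assays at 70 against 0 mM (25%). In run 1, 16 of these 18 had the opposite sign at 100 against 70 mM, 6 of them past the threshold, and 0 passed with the same sign. These counts of calls were no larger as shares than over all 72 assays, of which run 2 called 48.6% and run 1 33.3% at 100 against 70 mM.

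Opposite signs were also common over all 72 assays, with 43 in the first arrangement and 54 in the second, with Pearson's r of -0.17 and -0.39 and Spearman's rho of -0.27 and -0.43. At an unadjusted p under 0.05 in both comparisons, 6 assays were opposite and 3 of the same sign in the first arrangement, and 8 and 1 in the second. The 70 against 0 mM differences of the 2 runs had a Pearson r of 0.41 with each other and the same sign for 48 of 72 assays.

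**Figure D4:**
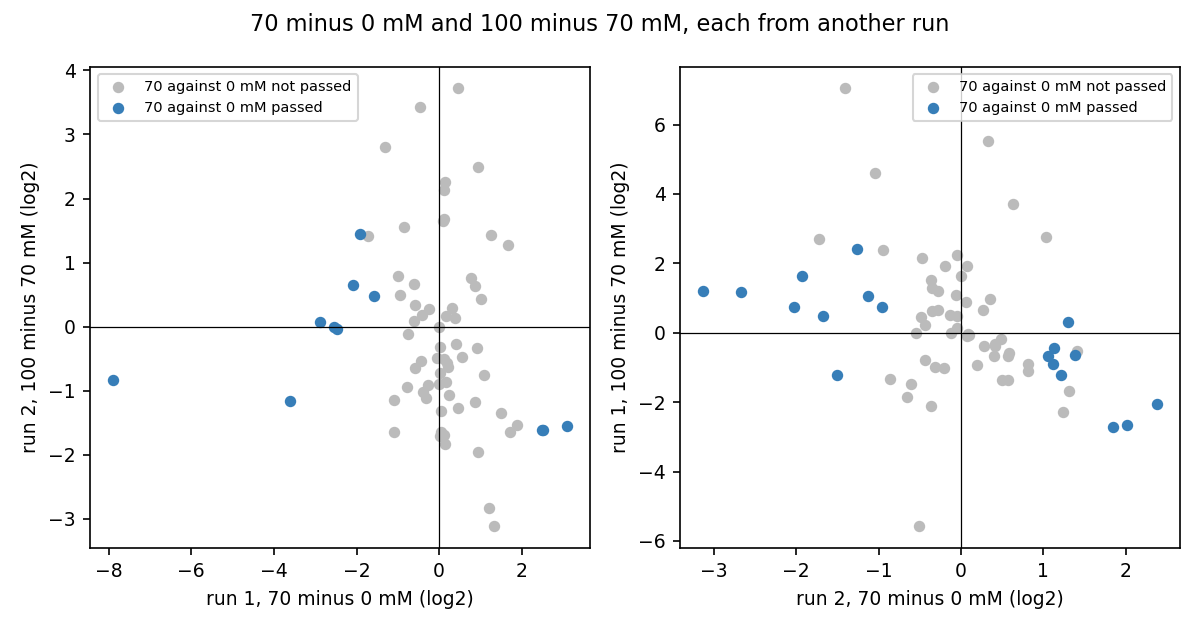
Difference at 70 minus 0 mM (log2, horizontal axis) in one run against the difference at 100 minus 70 mM (log2, vertical axis) in the other, for 72 assays; blue points passed the 70 against 0 mM test. Of the blue points, 7 of 11 on the left and 16 of 18 on the right have opposite signs on the axes.

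Each neurosphere was also placed on the direction from 0 to 70 mM measured in the other run, on a scale where the 0 mM mean is about 0 and the full step of the other run is 1. In run 1 the means at 25, 70 and 100 mM were -0.21, 0.26 and -0.37, and in run 2 they were 0.35, 0.29 and 0.17. The 100 minus 70 mM difference was -0.63 in run 1 (SE 0.28, adjusted p = 0.0709) and -0.13 in run 2 (SE 0.18, adjusted p = 0.477; permutation tests adjusted over 2 runs), so neither passed. The step from 0 to 70 mM itself was 0.25 and 0.29 and did not pass either (adjusted p = 0.372 and 0.139). With levels adjusted for mean cycle number, a choice made after seeing the data, the 100 minus 70 mM differences passed with -0.62 (SE 0.23, adjusted p = 0.0143) and -0.52 (SE 0.15, adjusted p = 0.00312). In those levels the step from 0 to 70 mM was 0.26 in run 1 (adjusted p = 0.321) and passed with 0.44 in run 2 (adjusted p = 0.00966). Without centring the difference of run 2 was 0.60 (adjusted p = 0.0709).

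The direction from 70 to 100 mM, measured in one run, was then followed in the other. This score was added after seeing the data, is 0 at the 70 mM mean of the scored run, and its tests were adjusted over 10 contrasts. In run 1 the score ran from -0.63 through a median of 0.09 to 0.62 at 70 mM and from -0.76 through 0.66 to 1.02 at 100 mM. In run 2 it ran from -0.72 through 0.04 to 0.50 at 70 mM and from -0.52 through 0.47 to 1.03 at 100 mM. Scores above 0 were found in 10 of 11 and 18 of 22 neurospheres at 100 mM, against 6 of 11 and 12 of 22 at 70 mM. The 100 minus 70 mM difference was 0.56 in run 1 (SE 0.20, adjusted p = 0.0379) and 0.41 in run 2 (SE 0.13, adjusted p = 0.0150; permutation tests). Without centring the run 1 difference was 0.10 (SE 0.28, adjusted p = 0.872).

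On this scale the 25 mM neurospheres lay with those at 100 mM. Their mean was 0.40 in run 1 and 0.38 in run 2, against 0.55 and 0.40 at 100 mM. They were above 70 mM by 0.41 in run 1 (SE 0.17, adjusted p = 0.0504) and 0.39 in run 2 (SE 0.10, adjusted p = 0.0049). The 100 minus 25 mM differences were 0.15 (SE 0.17, adjusted p = 0.517) and 0.02 (SE 0.12, adjusted p = 0.890), which does not show that the 2 doses are alike. The 0 mM neurospheres had means of 0.06 and 0.28 and exceeded 70 mM past the threshold in run 2 (0.29, SE 0.12, adjusted p = 0.0460) and not in run 1 (0.07, SE 0.21, adjusted p = 0.827). The run 2 call was lost without normalization (0.25, adjusted p = 0.102).

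In both runs the 70 mM group was at the edge of the 4 doses for more assays than any other group. Over 72 assays, its mean was the highest or the lowest of the 4 doses for 43 in run 1 and 51 in run 2. These counts were 39 and 37 for 100 mM, 26 and 37 for 25 mM, and 36 and 19 for 0 mM. For every assay 2 of the 4 doses stand at an edge, and in run 1 the counts of 70 and 100 mM lay close together. The 70 mM neurospheres also had the largest mean spread of the 4 doses in each run, 1.36 and 1.48. The part of that spread in these counts was not tested. The 70 mM mean was the highest in both runs for 16 assays and the lowest in both for 9, and it was highest in one run and lowest in the other for 5.

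Set-B, the other culture set, had 66 neurospheres at 70 and 100 mM. In 1 limma fit of all 264 neurospheres, Set-B called 0 of 70 assays between 100 and 70 mM (0%), with 4 at an unadjusted p under 0.05, and Set-A called 38. The median absolute difference over the 70 assays was 0.20 in Set-B and 0.82 in Set-A. The test of Set-A minus Set-B called 33 of 70 (47.1%), and 31 of these were among the 38 of Set-A. Without normalization it called 15. Across the 70 assays the sets had a Pearson r of 0.03 and the same sign for 36.

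Placed on the Set-A direction from 70 to 100 mM, Set-B neurospheres at 100 mM stayed with those at 70 mM. The 100 minus 70 mM differences were 0.06 in run 1 (SE 0.14) and -0.02 in run 3 (SE 0.08), both with an adjusted p of 0.843. The 0 and 25 mM neurospheres of Set-B lay higher on it, with means of 1.30 and 0.93 in run 1 and 0.91 and 0.86 in run 3. Each of these 4 exceeded 70 mM (adjusted p from 3e-05 to 6e-05, permutation tests adjusted over 6; the unadjusted p of run 3 is the smallest that 100000 resamples can give). In Set-B 70 and 100 mM thus lay together and apart from 0 and 25 mM, while in Set-A the 100 mM mean lay above that of 70 mM and near that of 25 mM.

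**Figure D5:**
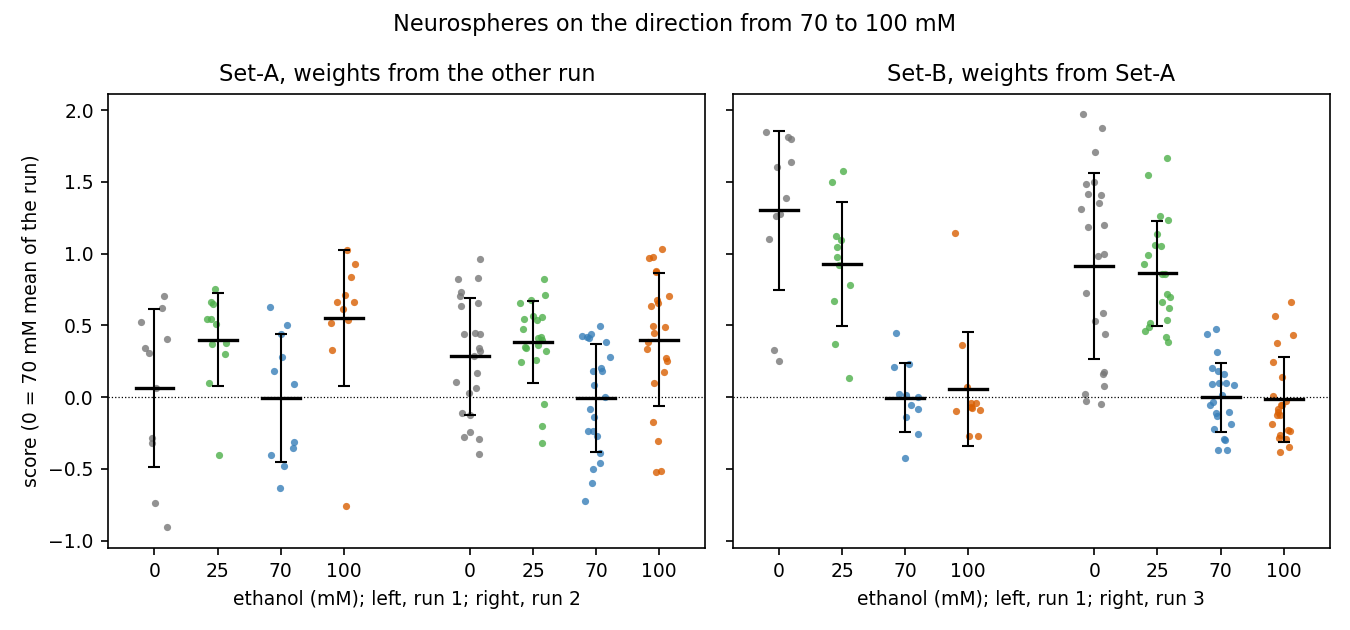
Score of each neurosphere on the direction from 70 to 100 mM (vertical axis, 0 at the 70 mM mean of its run) against ethanol dose (mM, horizontal axis), for Set-A with weights from the other run (left panel) and Set-B with weights from Set-A (right panel); thick bars are means and whiskers 1 SD. At 100 mM the Set-A means are 0.55 and 0.40 and the Set-B means 0.06 and -0.02.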

How the data were processed

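Lysates of single neurospheres went straight to reverse transcription and pre-amplification, and were read with EvaGreen over 30 cycles on Biomark HD arrays, per the labels' protocols. The deposited values are cycle numbers (Ct) that the authors obtained from the instrument's software and left without normalization, per the file headers. What made a value missing is not stated there. The assays and groups compared were chosen with earlier results of these data known. From the cycle numbers, relative levels were computed as described above. Of 75 assays, 72 were tested: those detected in at least 50% of Set-A neurospheres with at least 3 values in each run and dose. limma 3.58.1 (R 4.3.3) was fitted to all 132 Set-A neurospheres with 8 means, and runs were weighted 11 to 22. The fit was tested on simulated data. Permutation tests used 100000 resamples, two-sided, within run. Assays were named as the 2 largest rises and 2 largest falls meeting the stated conditions. No count of molecules underlies a cycle number, so precision comes from the spread between neurospheres. Alternatives were other centrings, detection rules, covariates, sample sets and single runs. No 2 of the 66 neurospheres had identical values.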

Additional observations from a re-analysis of the deposited data

Results flagged for a closer look

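The difference between 100 and 70 mM was tested for a difference between the culture sets, and 33 of 70 assays passed (limma, all 264 neurospheres, adjusted p under 0.05), against 15 without normalization. All 4 assays described singly are among them. For A016 the Set-A minus Set-B difference was 2.93 (SE 0.48, limma adjusted p = 2.19e-07), from 2.95 in Set-A and 0.01 in Set-B. For A017 it was 2.59 (SE 0.57, adjusted p = 8.92e-05), from 2.87 and 0.28. A001 gave -2.31 (SE 0.70, adjusted p = 0.00567), from -2.08 and 0.23, and A025 gave -1.60 (SE 0.47, adjusted p = 0.00456), from -1.99 and -0.39. These 4 were chosen for large differences in Set-A, which favours a difference between sets. Each set is 1 set of cultures, and Set-A and Set-B shared run 1 only, so a difference between the sets and one between any pair of cultures cannot be told apart.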

How the results depend on the processing

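The 35 assays that differed between 100 and 70 mM became 20 (11 higher, 9 lower) on the 5 steadiest assays and 21 (14 and 7) in a fit of run 1 alone. The other settings gave 28 to 44. Without normalization the differences of both runs together were 0.054 for A001 and 0.16 for A025. In that setting 15 assays depended on culture set in place of 33, and 8 turned back in place of 19. Another 34 differed between 100 and 70 mM but not between 70 and 0 mM, in place of 16. With a covariate for mean cycle number 31 turned back. The count of assays that went further was 0 in limma without normalization, with this covariate and with the median. In run 1 alone the differences were -0.043 in mean cycle number, 1.45 in detected assays, -0.10 in log2 diameter and -0.19 in spread. On the 0 to 70 mM direction, run 2 gave 0.60 without normalization, and levels adjusted for mean cycle number gave -0.62 in run 1 and -0.52 in run 2. On the 70 to 100 mM direction without normalization, run 1 gave 0.10 for 100 against 70 mM, -0.077 for 25 against 70 mM and -0.041 for 0 against 70 mM, and run 2 gave 0.25 for 0 against 70 mM, none of which passed. There, 25 against 70 mM in run 1 was 0.42 with the median and 0.35 with adjusted levels, and 100 against 0 mM in run 2 was 0.27 with adjusted levels; these passed. The cause of these changes was not tested. Position names shared by the doses gave no sign of pairing neurospheres (12 of 33 pairs correlated above 0.1, and 0 correlated best with their own name). These correlations cannot show that neurospheres of the same position name share nothing. A fit with the position as a replicate block called 32 assays, 14 higher and 18 lower. The difference of A017 did not pass in run 1 alone, nor that of A001 in run 2 alone. The number of neurospheres, above all the 11 per dose in run 1, limits the precision of each run.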
